A study of Mus musculus with 24 samples.

Results

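The genes described here are 4 dopamine receptors, Drd1, Drd2, Drd4 and Drd5, and 3 genes known for signalling in the striatum, Ppp1r1b, Adora2a and Rgs9. They were chosen by symbol, 7 names in all, and 6 of them were found among the 15456 genes of the table; Drd4 was not analysed here. All 6 passed the filter for testing, a mean of at least 10 normalized counts over the mice, as did 14974 genes in all. RNA-seq of the medial prefrontal cortex (mPFC) was done on 24 BALB/C mice in postnatal week 11, with 6 mice per group and 1 library per mouse. Control mice are labelled as having no treatment, and according to the methods they were given PBS. Duloxetine, which inhibits serotonin and norepinephrine transporters and is used against depression, was injected daily into the peritoneum. *R. flavefaciens*, an anaerobic gut bacterium, was given by gavage, and the fourth group received both. The tissue was a punch taken with a needle from a frontal slice, so each library holds RNA of every cell type in that punch. Recovered reads ranged from 12811413 to 15607343 per mouse. The question put to these genes was whether either treatment, or both together, altered the machinery of dopamine signalling.

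Dopamine receptors are G protein-coupled receptors. D1-type receptors (Drd1, Drd5) raise cAMP through stimulatory G proteins, and D2-type receptors (Drd2, Drd4) lower it through inhibitory ones. Ppp1r1b encodes DARPP-32, which becomes an inhibitor of protein phosphatase 1 once protein kinase A phosphorylates it. Adora2a, an adenosine receptor, shares striatal projection neurons with Drd2, and Rgs9 speeds the shut-off of G protein signals in these cells. In the cortex dopamine receptors are found mostly on neurons of the deep layers and on interneurons, at lower levels than in the striatum.

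The promoters of 3 of the 5 genes that varied together from mouse to mouse (Drd1, Drd2 and Rgs9), and of Drd5, which did not vary with them, are shown for comparison. The sequences are from the RefSeq promoter table (GRCm38.p6), which held 5 of the 7 symbols (not Ppp1r1b or Adora2a). Each reads 5′ to 3′ in the direction of the gene and ends at the RefSeq start site, or before it where the annotated gene already begins. Capitals mark the GC box GGGCGG or its reverse complement CCGCCC.
Drd2, chr9:49340153-49340402, plus strand: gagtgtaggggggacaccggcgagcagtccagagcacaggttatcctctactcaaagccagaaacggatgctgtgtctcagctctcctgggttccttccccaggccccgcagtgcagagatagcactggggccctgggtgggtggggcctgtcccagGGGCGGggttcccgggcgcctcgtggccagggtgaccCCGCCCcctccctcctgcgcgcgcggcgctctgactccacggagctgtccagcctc
Rgs9, chr11:109298182-109298431, minus strand: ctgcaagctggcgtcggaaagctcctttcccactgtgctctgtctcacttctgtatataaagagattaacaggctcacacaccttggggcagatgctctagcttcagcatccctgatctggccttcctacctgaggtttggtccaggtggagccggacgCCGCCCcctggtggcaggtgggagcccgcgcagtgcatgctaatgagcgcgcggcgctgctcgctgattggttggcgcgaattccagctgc
Drd1, chr13:54055706-54055908, minus strand: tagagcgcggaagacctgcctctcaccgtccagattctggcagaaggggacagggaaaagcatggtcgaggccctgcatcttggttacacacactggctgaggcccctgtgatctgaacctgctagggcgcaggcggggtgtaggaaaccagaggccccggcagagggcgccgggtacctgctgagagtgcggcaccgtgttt
Drd5, chr5:38319259-38319366, plus strand: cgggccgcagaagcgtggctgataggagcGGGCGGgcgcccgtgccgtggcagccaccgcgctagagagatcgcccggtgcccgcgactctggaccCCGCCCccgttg
The 250 bases before the start site held 2 GC boxes in Drd2, 2 in Drd5, 1 in Rgs9 and 0 in Drd1. Of 32851 promoter windows of that length, 32.7% held at least 1. The TATA box TATAAA was matched in Rgs9, and 12.4% of all windows held it on either strand. The full cAMP response element TGACGTCA, found in 1.55% of windows, was matched in none of the 4 genes. The shared base composition was high, with 64.0% G and C in Drd1, 68.8% in Drd2, 71.2% in Drd5 and 59.6% in Rgs9 over 250 bases. A match is a description of the letters only.

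Drd1 (chr13:54051183-54055705, minus strand, GRCm38) was the most abundant of the 3 receptors measured. Levels between genes were compared as mean normalized counts per kilobase of exon over the 24 mice. DARPP-32 (Ppp1r1b) stood far above the rest at 281 per kilobase, at the 84.0th percentile of the tested genes. The transcript 1700003D09Rik is annotated on the opposite strand over part of Ppp1r1b, and whether the counting used strand is not given in the sources used here, so its reads cannot be told apart from those of Ppp1r1b. Drd1 followed at 55.3, Rgs9 at 30.7, Adora2a at 20.0, Drd2 at 19.5 and Drd5 at 3.66, which put Drd5 at the 3.65th percentile. Ppp1r1b was above Drd1, and Drd1 above Rgs9, in 24 of 24 mice. Rgs9 exceeded Adora2a in 22 mice, all but mice 8_4 and 8_3 of the *R. flavefaciens* group. Adora2a and Drd2 had no fixed order, since Adora2a was the higher of the pair in 11 mice. Mice 8_4 and 11_4, described below, raised some of these means. Without them the means per kilobase were 257 for Ppp1r1b, 51.8 for Drd1, 26.7 for Rgs9, 14.7 for Drd2, 13.7 for Adora2a and 3.8 for Drd5. Drd5 was lowest in every mouse.

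Before the groups were compared, the mice were compared within them, and 2 mice stood apart. These were mouse 8_4 of the *R. flavefaciens* group and mouse 11_4 of the group given both treatments. Adora2a reached 393.41 normalized counts in mouse 8_4 and 154.52 in mouse 11_4, against a median of 38.7 over the 24 mice. Drd2 reached 237.31 and 132.45, with a median of 35.15. Rgs9, which shortens G protein signals, reached 560.06 and 388.51 (median 174.8). Ppp1r1b was at 2055.65 and 1155.82 (median 748.8), and Drd1 at 373.37 and 306.39 (median 194.1). For these 5 genes the same 2 mice ranked first and second. Drd5, at 6.33 and 7.06 normalized counts, was instead in the lower part of its range in them. Mouse 8_3 of the *R. flavefaciens* group came next for Adora2a (100.54), Drd2 (65.4) and Ppp1r1b (1038.56 against 1016.65 in control mouse 2_3).

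**Figure D1:**
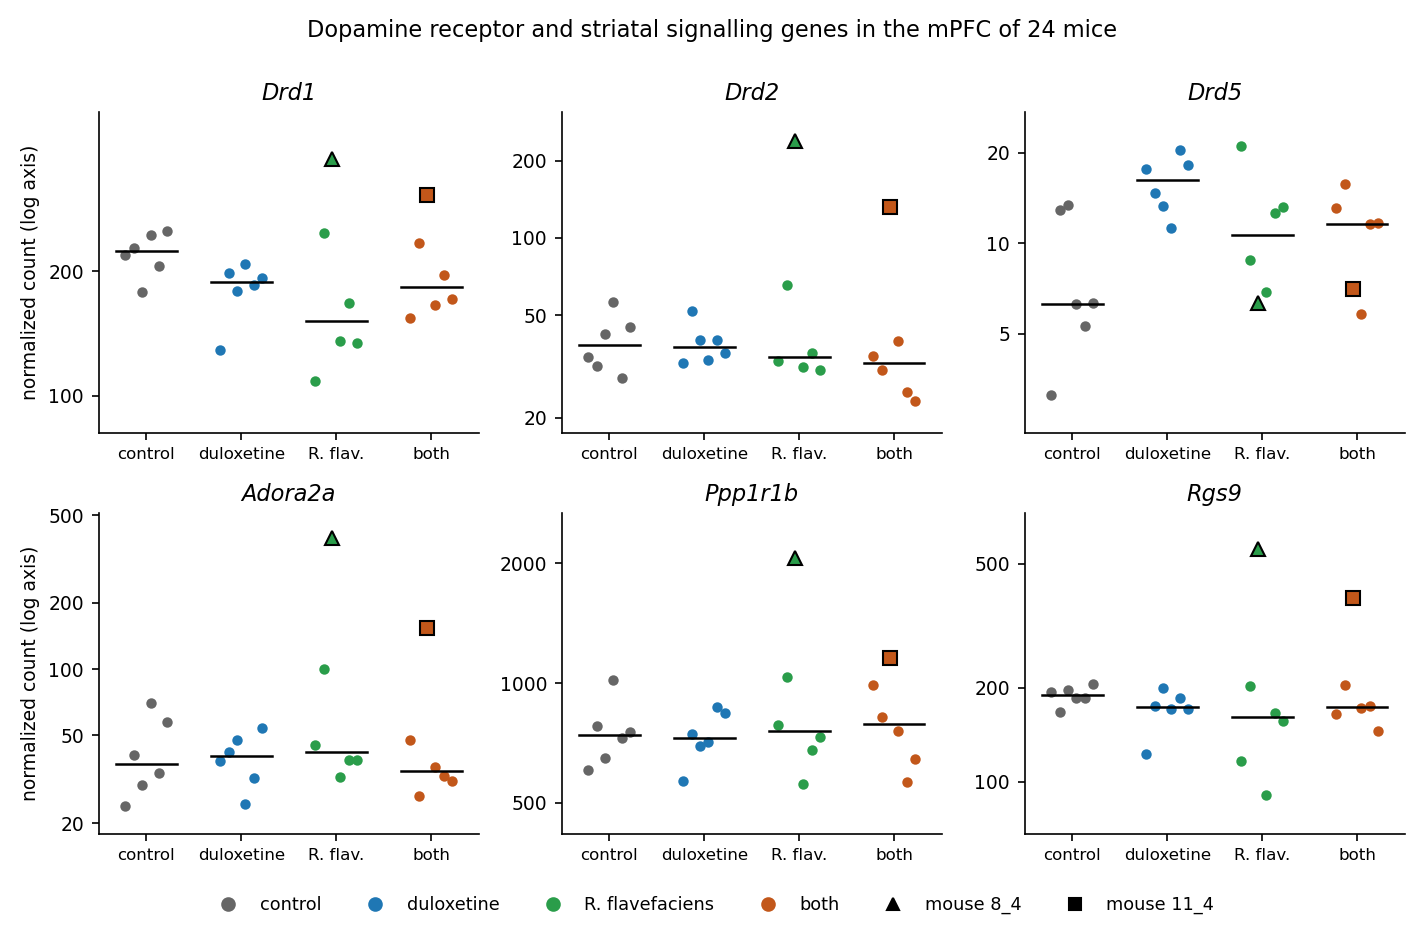
Normalized counts (log axis) of the 6 genes in each of the 24 mice by group, 6 mice per group; horizontal lines are group medians, the triangle is mouse 8_4 and the square mouse 11_4. The 2 marked mice lie above all others for Drd1, Drd2, Adora2a, Ppp1r1b and Rgs9, but not for Drd5.

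Markers of striatal cells were high in the same 2 libraries. Of 15 markers of striatal projection neurons, a list that holds none of the 6 genes, 14 were in the table and Isl1 was not analysed here. Their summed level was 7687.9 in mouse 8_4 and 5248.4 in mouse 11_4, while the other 22 mice lay between 3150.2 and 4270.1. Of the 14 markers, 13 were higher in mouse 8_4, and 10 in mouse 11_4, than in any of those 22. Pde10a, a phosphodiesterase and the most abundant of the list, was 1.90 times the median of the 22 mice in mouse 8_4 and 1.39 times in mouse 11_4. Markers near 0 in the other mice stood out most, and those named here were chosen after their values were seen. Six3, a transcription factor, had 69.61 and 37.08 normalized counts against a median of 2.51, and Gpr6, an orphan receptor, had 81.21 and 41.5 against 6.99.

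Other lists of cell markers were laid beside the striatal one. The septum list (Zic1 its most abundant gene) summed to 822.7 in mouse 8_4 and 726.7 in mouse 11_4, where the other mice reached at most 567.1. Zic1 was at 528.42 and 441.49 (median of the 22 mice 191.8), while Trpc4 of the same list, at 223.6 and 222.51, was not raised (median 226.4). Choroid plexus genes were high in mouse 8_4 only, with a sum of 730.9 for 2 of 4 genes. That sum rests on Ttr, the defining gene, at 657.09 against at most 68.57 in the 22 mice; Kl, at 73.83, was within their range (21.05 to 80.33). The cortical excitatory list, led by Slc17a7, summed to 45513.4 and 45028.2, below the lowest of the 22 mice (46309.4). Deep layer, upper layer, microglial, endothelial and astrocyte sums fell within the range of the other mice. The sum for inhibitory neurons, led by Gad1, was 11433.2 and 11408.9, against at most 11172.7 elsewhere. Oligodendrocyte genes (Mbp the most abundant) summed to 46775.9 and 46301.5, near 1.9 times the median of the 22 mice, but mouse 12_2 was higher at 52877.5, and its Adora2a (35.83) and Drd2 (39.7) were close to the medians. For midbrain dopamine neurons only Th and Slc18a2 of 6 markers were in the table, and for cholinergic neurons only Slc5a7 of 3; the single cholinergic gene was higher in mouse 11_4 (28.3) than in any of the 22 mice. In such bulk tissue fewer cells of a type and less RNA per cell cannot be told apart, and the part of these other cell types in the levels of the 6 genes was not tested.

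**Figure D2:**
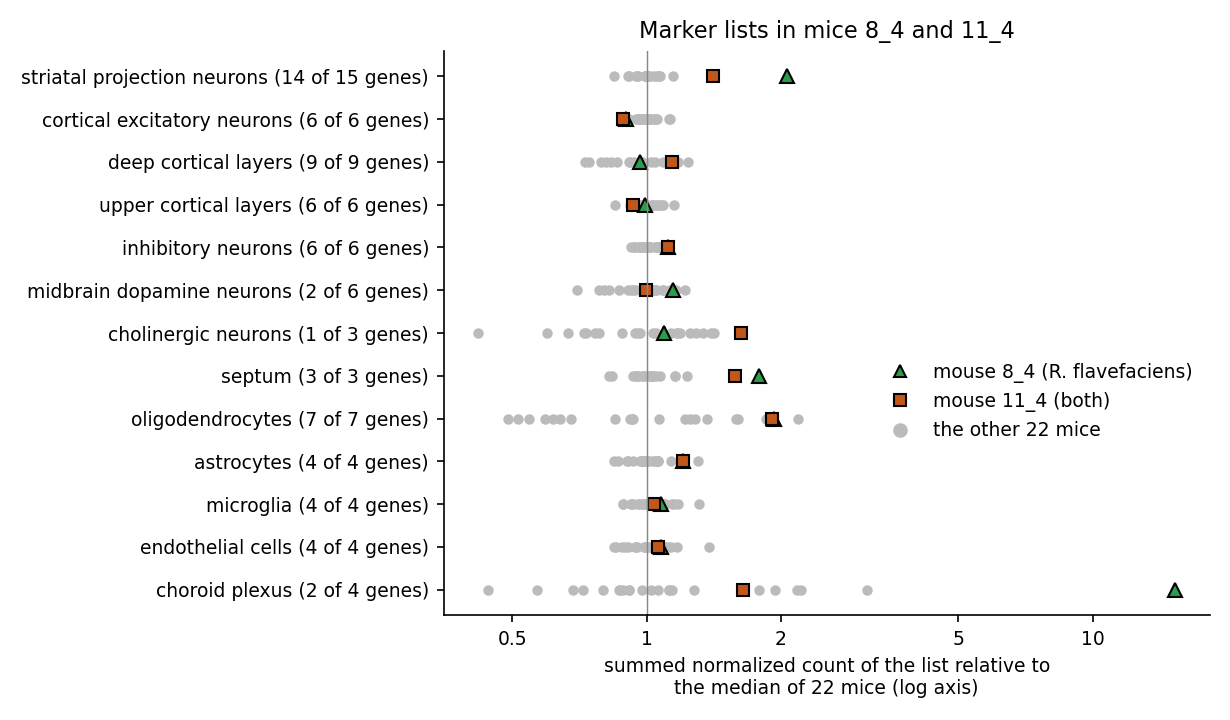
Summed normalized counts of 13 marker lists in each mouse, divided by the median of the 22 mice other than 8_4 and 11_4 (log axis); grey points are the 22 mice. Both marked mice lie to the right of all grey points for the striatal (2.06 and 1.41 times the median) and septum lists (1.79 and 1.58). They do so by less for inhibitory neurons (1.12 and 1.12). Mouse 8_4 alone does so for choroid plexus (15.3, from Ttr) and mouse 11_4 alone for the single cholinergic gene (1.63). Both lie to the left of all grey points for cortical excitatory neurons (0.897 and 0.887).

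Across mice, 5 of the 6 genes varied together. Relations were measured over 24 mice on log2(value + 1) after the group means were taken off, for 15 pairs of genes and for each gene with the mean of the striatal markers, 21 relations in all. Of these, 15 had a Pearson correlation past an adjusted p of 0.05 (100000 permutations within groups, two-sided, Benjamini-Hochberg), namely all those without Drd5. Adora2a and Drd2 had r = 0.922 (adjusted permutation p = 0.00051) and Spearman's rho = 0.822 (adjusted permutation p = 0.00193). With the striatal markers, Drd2 had r = 0.95 and Adora2a r = 0.923 (adjusted permutation p = 0.000462 for each), and rho was 0.795 and 0.786. For Drd5 and the striatal markers r was -0.357 (adjusted permutation p = 0.16).

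These relations rested in part on the 2 mice. Without the pair farthest from the median of the first measure, 10 of the 21 were past the threshold by Pearson's r and 5 by Spearman's rho. Without mice 8_4 and 11_4, which were the farthest for most measures, 7 were past it by r and 0 by rho (n = 22 mice). By rho, 15 passed over all mice, 8 without mouse 8_4 and 12 without mouse 11_4. Without both mice Adora2a and Drd2 had r = 0.686 (adjusted permutation p = 0.0228) and rho = 0.538 (adjusted permutation p = 0.0721). With the striatal markers Adora2a had r = 0.692 and Drd2 r = 0.694 (adjusted permutation p = 0.018 for each), whereas Drd1 (r = 0.419) and Rgs9 (r = 0.359) no longer passed. Within the groups of 6, r of Adora2a with the striatal markers was 0.939 in control, 0.05 in duloxetine, 0.984 in *R. flavefaciens* and 0.943 in both.

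**Figure D3:**
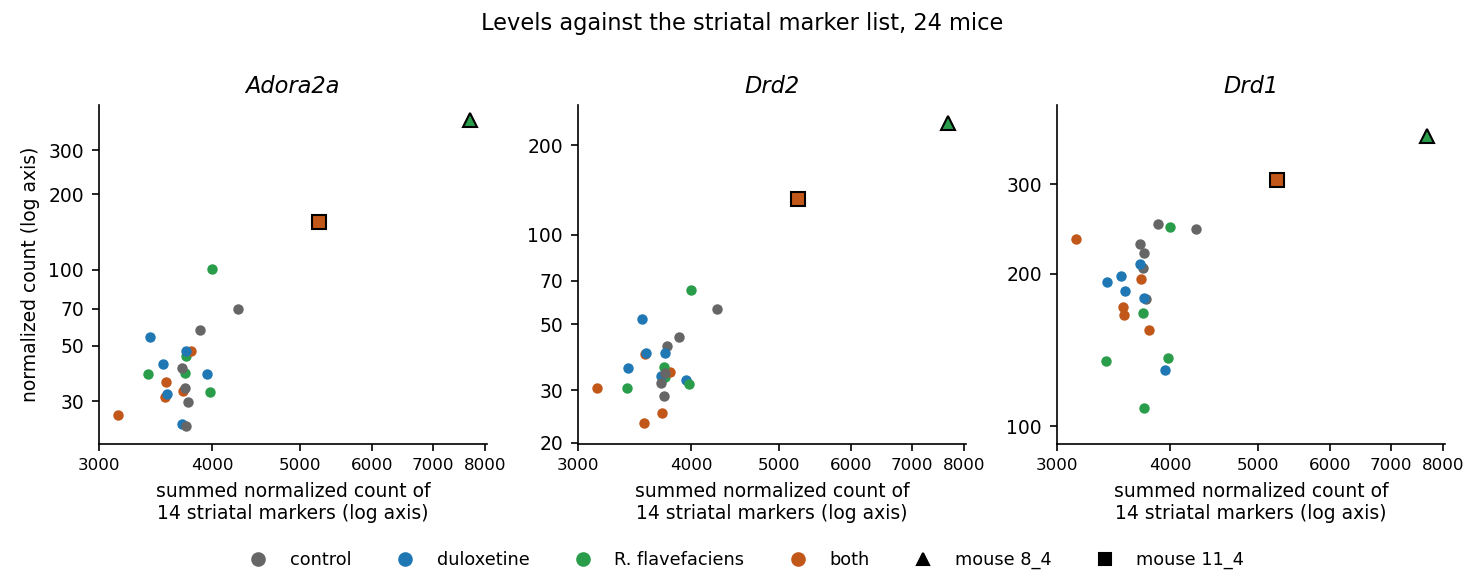
Normalized counts of Adora2a, Drd2 and Drd1 (log axis) against the summed normalized counts of 14 striatal markers (log axis), 1 point per mouse, coloured by group. Mice 8_4 and 11_4 lie alone at the upper right, and the other 22 form a cloud at or below 4270.1 on the horizontal axis.

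The genes most like each member over the 24 mice, by Pearson's r of the same residuals, included striatal markers for 3 of them. Penk, the precursor of enkephalin, was first for Drd2 (r = 0.94) and for Adora2a (r = 0.915) and second for Ppp1r1b (r = 0.889). Gng7, a G protein gamma subunit, was among the 3 most alike for Drd2 (r = 0.921), Adora2a (r = 0.866) and Rgs9 (r = 0.865). The protein kinase Prkcd followed for Drd2 (r = 0.898) and Rgs9 (r = 0.849). Drd1 was most like Ryr3, an intracellular calcium channel (r = 0.895), Adra2a, an adrenergic receptor (r = 0.861), and Pxdn (r = 0.836). Ppp1r1b also resembled Cdca7 (r = 0.89) and Shb (r = 0.843), Adora2a resembled Lrrc10b (r = 0.879) and Rgs9 resembled Foxo1, a transcription factor (r = 0.856). For Drd5 the leading genes were Tmem41a (r = 0.753), Tbc1d7 (r = 0.741) and Ddx25 (r = 0.738). Over the 22 mice the first places went to Zfpm2 for Drd1 (r = 0.893), Gm2115 for Drd2 (r = 0.776), Nol7 for Drd5 (r = 0.764), Chrna5, a nicotinic receptor subunit, for Ppp1r1b (r = 0.856), Kif4 for Adora2a (r = 0.752) and Cln3 for Rgs9 (r = 0.875). Ddx25 was the only gene that stayed among the first 3 of its member.

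Under duloxetine alone, Drd5 was the gene of the 6 whose group level differed most from control. Drd5 ranged from 3.12 to 13.37 normalized counts in control mice, with a median of 6.285, and from 11.21 to 20.45 under duloxetine, with a median of 16.21. The ranges overlapped, with 2 control mice inside the duloxetine range. Its mean was 7.88 ± 4.24 (SD, n = 6) in control and 16.0 ± 3.46 (SD, n = 6) under duloxetine, a log2 fold change of 1.05 ± 0.31 (SE). By limma this had an unadjusted p of 0.00209, ranked 24th of all genes, but an adjusted p of 1. These are low counts, with 3 recovered reads in the lowest control mouse, and Gm26560 is annotated antisense over the gene. As for Ppp1r1b, reads of the antisense gene cannot be told apart.

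No member passed the adjusted threshold of 0.05 for duloxetine against control, where limma called 0% of the 14974 genes and 573 genes had an unadjusted p under 0.05. For 1 of the 6 genes, Drd5, the unadjusted p was under 0.05 by limma, by edgeR and by DESeq2 alike, and neither edgeR nor DESeq2 called any of the 6. Drd1 ranged from 177.89 to 250.33 (median 223.8) in control and from 129.11 to 208.82 (median 188.8) under duloxetine, and the ranges overlapped (log2 fold change -0.28 ± 0.21, SE). Drd2 had a median of 38.22 in control (28.6 to 56.36) and of 37.78 under duloxetine (32.52 to 51.92). The log2 fold changes of Drd2, Ppp1r1b, Adora2a and Rgs9 were -0.0084, -0.0238, -0.0467 and -0.16.

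For *R. flavefaciens* against control, group means and medians differed widely. Adora2a had a mean of 108 ± 142 (SD, n = 6) against 42.7 ± 17.7 in control, yet medians of 42.08 and 37.3. Its range was 32.54 to 393.41 in the treated mice and 23.89 to 69.93 in control mice. Drd2 ran from 30.53 to 237.31 with a median of 34.53, and its mean of 72.3 ± 81.9 (SD, n = 6) exceeded the control mean of 39.7 ± 10.3 although the median was lower. Rgs9, with 90.71 to 560.06 and a median of 161.1, spanned both sides of the control range of 167.8 to 206.16 (median 189.5). Drd1 spanned 108.59 to 373.37 with a median of 151.8, and 4 of its 6 mice were below the lowest control mouse. Ppp1r1b lay between 558.07 and 2055.65 (median 759.7), around the control range of 604.55 to 1016.65 (median 738.9).

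None of the 6 genes passed the test in this comparison, in which limma called 0.0267% of genes, and 0 of the 6 had an unadjusted p under 0.05 (1 by edgeR and 1 by DESeq2, which called none of them), against 19.6% of all genes by limma. The log2 fold changes were -0.31 ± 0.21 (SE) for Drd1, 0.40 ± 0.39 for Drd2, 0.52 ± 0.31 for Drd5, 0.24 ± 0.21 for Ppp1r1b, 0.73 ± 0.45 for Adora2a and -0.0881 ± 0.27 for Rgs9. Without mice 8_4 and 11_4 the values moved, and still none passed. Drd1 was then at -0.52 ± 0.16 (SE; unadjusted p = 0.0025, adjusted p = 0.147 by limma) and Rgs9 at -0.42 ± 0.15 (unadjusted p = 0.00871, adjusted p = 0.177 by limma). Drd2 and Ppp1r1b turned to -0.04 and -0.0012, and Adora2a shrank to 0.23. Drd5 was at 0.65 ± 0.31 (unadjusted p = 0.0478, adjusted p = 0.291 by limma). In that fit 3 of the 6 genes thus had an unadjusted p under 0.05, as had 2536 of the 14945 genes tested. Means over the 5 remaining *R. flavefaciens* mice were 159 ± 53.6 for Drd1 (SD) and 146 ± 43.8 for Rgs9.

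**Figure D4:**
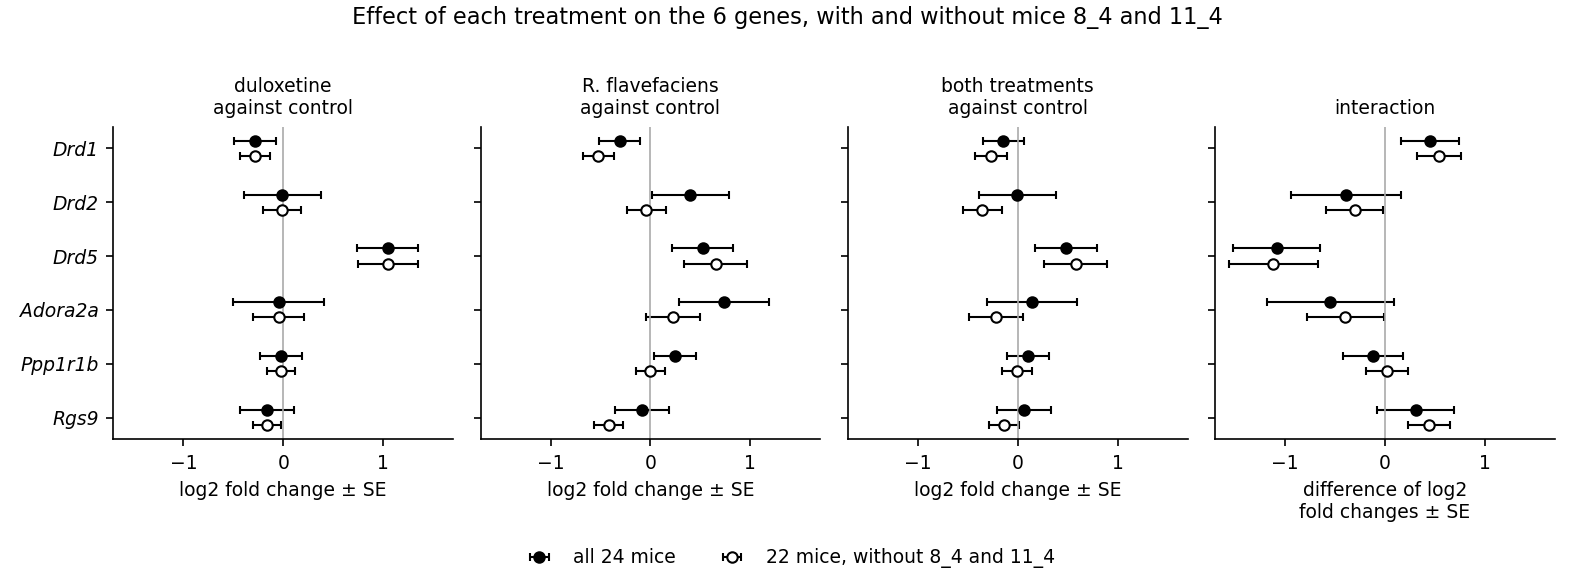
Log2 fold changes against control and the interaction for the 6 genes, as points with bars of 1 SE, from limma on all 24 mice (filled) and on 22 mice (open). Drd5 lies to the right under duloxetine (1.05), and under *R. flavefaciens* the open points of Drd1 (-0.52) and Rgs9 (-0.42) lie left of the filled ones (-0.31 and -0.0881).

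Both treatments together gave medians of Drd5 and Ppp1r1b above control, and of Drd1, Drd2, Adora2a and Rgs9 below it, with overlapping ranges for all 6 genes. Drd1 ranged from 154.56 to 306.39 (median 183.7) and Rgs9 from 145.63 to 388.51 (median 173.8), each around the control range. Adora2a, at 26.58 to 154.52 with a median of 34.37, and Drd2, at 23.3 to 132.45 with a median of 32.59, were high in mouse 11_4 only. Ppp1r1b spanned 563.33 to 1155.82 (median 790.1) and Drd5 spanned 5.81 to 15.75 (median 11.63, against 6.285 in control). Their log2 fold changes were -0.14 ± 0.21 (SE) for Drd1, -0.0021 ± 0.39 for Drd2, 0.49 ± 0.31 for Drd5, 0.10 ± 0.21 for Ppp1r1b, 0.14 ± 0.45 for Adora2a and 0.0585 ± 0.27 for Rgs9. Of the 6 genes 0 passed, and 0.1% of all genes were called. Without the 2 mice Drd2 was at -0.35 ± 0.20 and Adora2a at -0.22 ± 0.27.

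The remaining comparisons showed the same lack of calls among the 6 genes. Limma called 0% of genes for both treatments against duloxetine alone, 2.23% for both against *R. flavefaciens* alone, 0% for the interaction, 1.03% for duloxetine averaged over the bacterium and 0.0267% for the bacterium averaged over duloxetine, and 0 of the 6 each time. The interaction asks whether the effect of duloxetine differed in mice that received the bacterium. For Drd5 it was -1.08 ± 0.43 (SE; unadjusted p = 0.0191, adjusted p = 0.639 by limma), since Drd5 was at 11.5 ± 5.49 (SD, n = 6) with the bacterium alone and 10.8 ± 3.74 with both. Averaged over the bacterium, Drd5 was 0.50 ± 0.22 (SE) higher with duloxetine on the log2 scale (unadjusted p = 0.028, adjusted p = 0.267 by limma). The interaction of the other members was 0.45 ± 0.29 (SE) for Drd1, -0.39 ± 0.55 for Drd2, -0.12 ± 0.30 for Ppp1r1b, -0.55 ± 0.64 for Adora2a and 0.31 ± 0.38 for Rgs9. Without the 2 mice the interaction of Drd1 was 0.54 ± 0.22 (adjusted p = 0.56 by limma) and that of Rgs9 0.44 ± 0.21 (adjusted p = 0.587 by limma). The comparisons share their groups, so their values are not separate evidence.

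All of the 6 genes but Drd5 varied with markers of the deep cortical layers over the 24 mice, Drd1 with the highest correlation. The 9 deep layer markers, led by Bcl11b, include Tle4 and Foxp2, transcription factors of corticothalamic neurons. Whether reads of these markers also came from striatal cells in the punch was not tested, so the relation cannot be assigned to the cortex alone. Their sum was lowest in mouse 9_1 (4408.4), mouse 7_2 (4516.6) and mouse 5_1 (4792.0). The same 3 mice had the lowest Rgs9 of all, at 90.71, 116.35 and 122.21. Their Drd1, at 136.07, 108.59 and 129.11, took 3 of the 4 lowest places. Oligodendrocyte sums in these mice were also low, at 13184.6, 12478.3 and 15461.1 against a median of 24222.7 over the mice other than 8_4 and 11_4. Mouse 12_4 was lower still (11851.1), with a deep layer sum of 5213.4 and Rgs9 at 145.63. Mice 2_2 (14349.3) and 12_3 (14903.0) were also below mouse 5_1, with Rgs9 at 196.4 and 175.19. Mouse 12_2, with a deep layer sum of 4916.8, had the highest oligodendrocyte sum (52877.5) and Rgs9 at 172.35. The part of oligodendrocyte RNA in these levels was not tested. At the other end mouse 8_3, with the highest sum (7517.9), had Drd1 at 246.95 and Rgs9 at 203.03.

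For correlations the deep layer measure was the mean of the 9 markers on log2(value + 1), not the sum given above. Group means were taken off, as for the striatal markers. The family of 6 relations was chosen after the values were seen. Over 24 mice the correlation of this measure with Drd1 was r = 0.768 (adjusted permutation p = 0.00354, rho = 0.805), and with Rgs9 it was 0.708 (adjusted permutation p = 0.00416, rho = 0.804). It was 0.705 for Ppp1r1b (adjusted permutation p = 0.00399), 0.572 for Drd2 (adjusted permutation p = 0.0277) and 0.555 for Adora2a (adjusted permutation p = 0.0287). Without mice 8_4 and 11_4, r was 0.793 for Drd1 (adjusted permutation p = 0.00422), 0.858 for Rgs9 (adjusted permutation p = 0.00126), 0.732 for Ppp1r1b (adjusted permutation p = 0.00168), 0.555 for Drd2 (adjusted permutation p = 0.033) and 0.468 for Adora2a, which no longer passed (adjusted permutation p = 0.0703). Leaving out mice 9_1 and 7_2, the farthest on the deep layer measure, gave r = 0.713 for Drd1 (adjusted permutation p = 0.0176) and 0.633 for Ppp1r1b (adjusted permutation p = 0.021). Rgs9 passed only narrowly, with r = 0.567 (adjusted permutation p = 0.0498). Drd2 and Adora2a did not pass (adjusted permutation p = 0.0907 and 0.101), although both passed by Spearman's rho (adjusted permutation p = 0.0379 and 0.0335). Within single groups of 6, r for Drd1 was between 0.641 and 0.851. The lowest r was 0.501 for Rgs9 and 0.35 for Ppp1r1b, both in control. Under duloxetine it was lowest for Drd2 (0.201) and Adora2a (0.018). For Drd5 it was -0.12 over 24 mice (adjusted permutation p = 0.602). The deep layer sum averaged 6534 ± 444 (SD, n = 6) in control, 6393 ± 894 in duloxetine, 5509 ± 1150 in *R. flavefaciens* and 5818 ± 820 in both, and was thus lowest in the group with the lowest medians of Drd1 and Rgs9. By group means with mouse 8_4 included, Drd1 was lowest under duloxetine (182, against 194 in *R. flavefaciens*) and Rgs9 highest in *R. flavefaciens* (215). Inhibitory neuron sums averaged 10050 ± 464 (SD, n = 6) in control and 10930 ± 388 in *R. flavefaciens*. Microglial sums were 2766 ± 136 and 3013 ± 191, and upper layer sums 10510 ± 333 and 10640 ± 792. The part of these cells in the levels of the 6 genes was not tested.

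**Figure D5:**
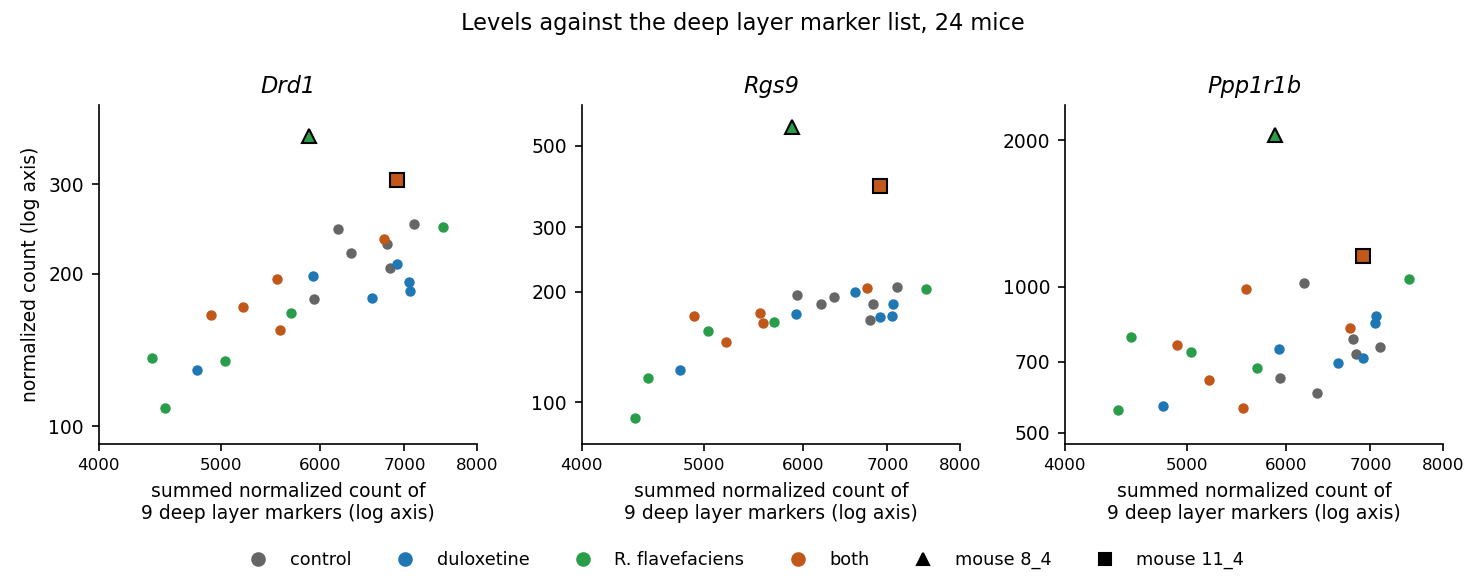
Normalized counts of Drd1, Rgs9 and Ppp1r1b (log axis) against the summed normalized counts of 9 deep layer markers (log axis), 1 point per mouse, coloured by group. The correlations in the text use the mean of the log2 values of these markers, not this sum. Mice with low sums (4408.4 to 4792.0) have low Drd1 and Rgs9, and mice 8_4 and 11_4 lie above the other points.

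Other genes of dopamine and adenosine signalling were given by a list of 79 symbols, of which 75 were in the table and 74 were tested. None of the 74 was called for duloxetine or for *R. flavefaciens* against control by limma, where 0 higher and 2 lower, and 5 higher and 8 lower, had an unadjusted p under 0.05. That is 2.7% and 17.6% of the 74, against 3.83% and 19.6% of all genes. EdgeR called none of the 74 there either, and DESeq2 called none for duloxetine and Csnk1e and Pde4b for *R. flavefaciens*, where it called 488 of all genes. Csnk1e encodes a casein kinase 1 and Pde4b a phosphodiesterase that breaks down cyclic AMP; the genes that DESeq2 called are named here after their values were seen. The median log2 fold changes of the 74 genes were -0.01 for duloxetine and -0.014 for *R. flavefaciens*, against -0.0018 and 0.0031 over all genes. For both treatments against control limma called 0.1% of all genes. Among the 74, 1 gene was lower by limma, Ppp2r5d, a regulatory subunit of the phosphatase that dephosphorylates DARPP-32. It fell from 1230 ± 18.6 to 1070 ± 54.5 normalized counts (SD, n = 6), a log2 fold change of -0.20 ± 0.04 (SE; adjusted p = 0.0438 by limma), and it passed in 13 of 31 other settings, with adjusted p between 0.00162 and 0.129 (0.0677 without the 2 mice). DESeq2 called 2 of the 74, Ppp2r5d and Adcy3, both lower, where it called 217 of all genes. Unadjusted, 3 were higher and 10 lower, which is 17.6% of the 74 against 16.8% of all genes. The median of the 74 genes was -0.038, against 0.0007 over all genes. For both treatments against *R. flavefaciens* alone 1 gene was lower by limma, Ppp1cc, a catalytic subunit of protein phosphatase 1, the enzyme that DARPP-32 inhibits. It went from 2420 ± 76.1 to 2190 ± 102 (SD, n = 6; log2 fold change -0.14 ± 0.04, SE; adjusted p = 0.0452 by limma) and passed in 12 of 31 other settings (adjusted p between 0.00886 and 0.126). EdgeR called 0 of the 74 in that comparison and DESeq2 4, all lower (Adk, Csnk1e, Ppp1cc and Ppp2r5d), where it called 624 of all genes. The 1 call by limma stands beside 2.23% of all genes called there, and 21.6% of the 74 had an unadjusted p under 0.05, against 19.7% of all genes, so the list was near the background. For both treatments against duloxetine alone, for the interaction and for the averaged bacterium, 0 of the 74 passed by limma or edgeR (3, 6 and 13 had an unadjusted p under 0.05 by limma, which is 4.05%, 8.11% and 17.6% of the 74 against 5.9%, 7.53% and 18.1% of all genes). DESeq2 called Ppp2r5d, lower, for the averaged bacterium (adjusted p = 0.0498), where it called 441 of all genes. In the other two it called none of the 74. For averaged duloxetine limma called 1, again Ppp2r5d, at a log2 fold change of -0.11 ± 0.03 (SE; adjusted p = 0.0454), and it passed in 11 of 31 other settings (adjusted p between 0.0116 and 0.0957). There edgeR called 0 of the 74 (Ppp2r5d at an adjusted p of 0.0553 by edgeR). DESeq2 called 1 of the 74, Ppp2r5d (adjusted p = 0.0116), where it called 321 of all genes. Limma called 1.03% of all genes in that comparison, and 14.9% both of the 74 and of all genes had an unadjusted p under 0.05.

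By role, the gene with the smallest unadjusted p of each other group did not pass by limma; of those named here DESeq2 called Adcy3 and Adk, as given above. Among genes for making, storing and clearing dopamine, the vesicular transporter Slc18a2 was at 72.6 ± 15.3 in control and 91.1 ± 8.7 (SD, n = 6) under *R. flavefaciens* (log2 fold change 0.34, adjusted p = 0.102 by limma). The adenosine A1 receptor Adora1 was at 2560 ± 152 and 2280 ± 195 in the same groups (log2 fold change -0.17, adjusted p = 0.103 by limma). The adenylyl cyclase Adcy3 was at 908 ± 54.4 in control and 744 ± 80.7 under both treatments (log2 fold change -0.29, adjusted p = 0.0871 by limma). Gnb5, the G protein beta subunit that partners Rgs9, had a log2 fold change of -0.19 in that comparison (adjusted p = 0.169 by limma). Against *R. flavefaciens* alone, both treatments gave 0.49 for Rgs11 (adjusted p = 0.107 by limma), a relative of Rgs9, -0.11 for the receptor kinase Grk6 (adjusted p = 0.175 by limma) and -0.15 for the adenosine kinase Adk (adjusted p = 0.0719 by limma). Among the most abundant genes of their groups per kilobase of exon were Prkar1b, a regulatory subunit of protein kinase A (3670), the phosphatase scaffold Ppp1r9b (3330), Gnb1 (2610), Rgs4 (1930) and the cyclase Adcy1 (1810), all above the 281 of Ppp1r1b.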

How the data were processed

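The authors enriched poly(A) RNA, mapped reads with TopHat2 and normalized gene counts with DESeq2 (versions 2.1.0 and 1.18.1 per the submitters' processing notes); the deposited signal values are counts divided by 1 size factor per mouse. Those notes name mm9 and the methods GRCm38.p5; gene positions matched GRCm38 in GENCODE vM21 for 14285 of 15438 matched IDs. Values were whole multiples of 1 step per mouse (99.997% of 370875 non-zero values within 0.0051), which returned reads, with a median of 14455107 per mouse. Genes with a mean of at least 10 were tested with limma 3.58.1 on log2(value + 1), all 4 groups in 1 fit, two-sided, with Benjamini-Hochberg adjustment over all genes of a comparison. Fold changes on this scale understate changes of low genes. The members, lists and tests were chosen with earlier results of these data known. Genes named are the members, list genes past the threshold or with the smallest p or highest level of their group, the 3 genes most like each member, and leading markers; a few marker genes were named after their values were seen, and 2 genes that the rule names are not reported here. Alternatives were a pseudocount of 0.1, no filter, rescaling to the 75th percentile, edgeR 4.0.16 and DESeq2 1.42.0 on recovered reads, a random block for the first label number, and leaving out each mouse or mice 8_4 and 11_4. The last was chosen after seeing the data. The fits were tested on simulated data. The labels name no batch. Software was R 4.3.3, Python 3.11.15, numpy 2.4.6, pandas 2.3.3, scipy 1.17.1 and matplotlib 3.10.9.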

Additional observations from a re-analysis of the deposited data

Results flagged for a closer look

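Single mice lay far from the rest of their group of 6, with a gap to the next mouse above the critical value of Dixon's outlier test, in 9 of 24 combinations of gene and group and in 7 of 52 combinations of marker list and group; chance alone gives about 1 in 20. The combinations are not separate, since they share mice and most of the genes varied together, so these counts cannot be set against that rate. Mouse 8_4 was highest of the *R. flavefaciens* group for Drd2 (237.31), Ppp1r1b (2055.65), Adora2a (393.41) and Rgs9 (560.06), and for the striatal (7687.9), choroid plexus (730.9) and astrocyte (11864.6) lists. Mouse 11_4 was highest of the group given both treatments for Drd2 (132.45), Adora2a (154.52), Rgs9 (388.51) and the striatal (5248.4) and septum (726.7) lists. Mouse 5_1 was lowest of the duloxetine group for Drd1 (129.11) and Rgs9 (122.21). Control mouse 2_3 was highest for the striatal list (4270.1), and duloxetine mouse 5_3 for the choroid plexus list (148.9). The part of other cell types in these values was not tested.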

How the results depend on the processing

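None of the 6 genes was called in any of 256 fits, that is, 8 comparisons under the reported settings and 31 others, and the smallest adjusted p was 0.147 (Drd1, *R. flavefaciens* against control, without mice 8_4 and 11_4). Counts of all genes called were less stable. In the order of the comparisons of single groups (duloxetine, *R. flavefaciens* and both against control, both against duloxetine and against *R. flavefaciens*), limma called 0, 4, 15, 0 and 334, and DESeq2 1, 488, 217, 1 and 624; averaged over the other treatment, limma called 154 for duloxetine and 4 for the bacterium, and DESeq2 321 and 441. The random block gave 221, 59 and 533 for *R. flavefaciens* and both against control and for both against *R. flavefaciens*, and 255 for duloxetine averaged. The correlation estimated within the first label number was negative (-0.0451). Rescaling gave 24 for both against control. Without mice 8_4 and 11_4 the counts were 2 and 9 for *R. flavefaciens* and both against control, and 1 for the bacterium averaged. Leaving out 1 mouse, counts for *R. flavefaciens* against control lay between 0 (without 9_3, for one) and 616 (without 9_2), for both against control between 5 and 154 (without 12_4), for both against duloxetine between 0 and 2 (without 9_3), for both against *R. flavefaciens* between 47 (without 11_3) and 577 (without 8_4), for duloxetine averaged between 46 (without 3_1) and 260 (without 12_4), and for the bacterium averaged between 1 and 135 (without 8_3). No paired analysis was possible because the groups share no replicate numbers.

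Of the 24 log2 fold changes of the 6 genes in the comparisons with control and the interaction, 12 changed sign in no setting. Drd2 turned to 0.01 (duloxetine) and 0.031 (both) after rescaling, and to 0.28 by edgeR and 0.266 by DESeq2 (both). Rgs9 turned to 0.181 by edgeR and 0.188 by DESeq2 (*R. flavefaciens*). Without mice 8_4 and 11_4, Drd2 was -0.04 and Ppp1r1b -0.001 (*R. flavefaciens*), Ppp1r1b -0.006, Adora2a -0.216 and Rgs9 -0.137 (both), and Ppp1r1b 0.019 (interaction). Leaving out 1 mouse, values for duloxetine lay between -0.093 and 0.098 (Drd2), -0.084 and 0.066 (Ppp1r1b) and -0.19 and 0.112 (Adora2a); for *R. flavefaciens* between -0.04 and 0.544 (Drd2), -0.001 and 0.375 (Ppp1r1b) and -0.419 and 0.104 (Rgs9); for both between -0.352 and 0.139 (Drd2), -0.006 and 0.201 (Ppp1r1b), -0.216 and 0.3 (Adora2a) and -0.137 and 0.145 (Rgs9); and for the interaction between -0.742 and 0.046 (Drd2) and -0.25 and 0.126 (Ppp1r1b). Of the 21 relations, 15 passed by Pearson's r, 7 without mice 8_4 and 11_4 and 15 to 18 without 1 mouse; by Spearman's rho 15 passed, 0 without both mice and 8 (without 8_4) to 15 without 1 mouse. The cause of these shifts was not tested. Drd5 had the fewest reads of the 6 genes in every mouse, and the effect of depth was not tested.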
